A study of Mus musculus with 36 samples.

Results

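Ago2 peaks on 9 families of chromatin regulator genes were described across colonic tumours with and without K-Ras-G12D. A peak is a stretch of RNA where reads crosslinked to Ago2 pile up. Members were all peaks whose annotated target gene has a symbol starting with Kdm, Kmt2, Smarc, Arid, Chd, Hdac, Kat, Setd or Brd followed by a digit, or by a letter and a digit, except Arid3b. This gave 94 peaks on 42 genes, out of 7585 annotated peaks on 3933 genes. The rule used names only and no measured value.

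These genes encode the enzymes and adaptors that write, erase and read marks on histones or move nucleosomes. Kmt2, Setd and Kat proteins are mostly methyl- and acetyltransferases, Kdm and Hdac proteins remove those marks, Brd proteins bind acetylated lysine, and Smarc, Arid and Chd proteins sit in remodelling complexes such as BAF, NuRD and Sin3. Several of them are recurrently mutated in colorectal and other cancers. A miRNA guides Ago2 to mRNAs mainly through its seed, bases 2 to 8 counted from its 5′ end, and bound mRNAs tend to be repressed.

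All mice were C57BL/6 and carried Halo-Ago2/+, Villin-CreER/+ and Apc(fl/fl). The 6 tumours called WT had no further allele, and the 6 called G12D also carried K-Ras-G12D/+, so WT here means wild type for K-Ras in Apc-deleted tumours. Villin-CreER acts in the intestinal epithelium, and it was activated at 8 to 12 weeks of age with a 200 µl enema of 4-hydroxytamoxifen at 5 mg/ml. Tumour tissue was scraped off when the animals were moribund, and RNA was crosslinked by 3 rounds of UV at 400 mJ/cm2. The Halo tag then bound Ago2 covalently to a resin, with its miRNAs and mRNA fragments. The series holds 36 samples, a miRNA, an mRNA and an input library for each of the 12 tumours, with replicates 1 to 3 of each genotype in batch 1 and 4 to 6 in batch 2. Whether each number stands for 1 mouse is not stated, and the p-values below reflect only how much these samples vary.

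The mRNA libraries were of very unequal depth, and this touches every comparison of genotypes below. They held 30607 to 974013 reads in peaks, and the lowest were WT replicate 5 with 30607 and WT replicate 6 with 57037. On the member peaks these 2 libraries had 219 and 476 reads, with 53 and 23 of the 94 peaks at 0. Of the epithelial markers looked for, 8 of 10 genes had a peak (34 peaks, summed signal 621 to 9627 normalised counts in WT and 4141 to 9474 in G12D). None of 6 leukocyte genes and none of 5 endothelial and nerve genes had one. Of the fibroblast and smooth muscle markers, Col1a1 and Col1a2 had peaks, and 4 of 6 genes had none; their summed signal was 13.6 to 628 in WT and 196 to 665 in G12D. In bulk tissue, fewer cells of a type and less RNA per cell cannot be told apart. A peak's signal also mixes the amount of the RNA with its Ago2 binding, as no input values were used here.

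A miRNA of each seed family with sites in 4 or more member peaks is printed first, because the peaks are grouped by these seeds below, and so is miR-23a, whose level is described further on. Each line gives the mature sequence from RefSeq (the GRCm38.p6 table), 5′ to 3′, with the seed in capitals. The first pair stands for the let-7 family, whose members share the seed GAGGUAG. The next pair of the miR-200 family also share a seed with each other.
mmu-let-7i-5p: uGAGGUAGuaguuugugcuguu
mmu-let-7b-5p: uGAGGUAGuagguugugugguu
mmu-miR-200c-3p: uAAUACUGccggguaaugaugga
mmu-miR-429-3p: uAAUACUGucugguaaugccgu
mmu-miR-16-5p: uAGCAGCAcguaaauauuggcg
mmu-miR-29a-3p: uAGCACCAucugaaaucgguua
mmu-miR-30e-5p: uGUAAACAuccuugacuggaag
mmu-miR-182-5p: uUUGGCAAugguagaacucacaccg
mmu-miR-96-5p: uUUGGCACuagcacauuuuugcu
mmu-miR-194-5p: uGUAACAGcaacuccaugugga
mmu-miR-18a-5p: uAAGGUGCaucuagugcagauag
mmu-miR-22-3p: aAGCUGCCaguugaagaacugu
mmu-miR-23a-3p: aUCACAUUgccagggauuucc
The site that pairs with a whole let-7 seed and has an A opposite base 1, an 8mer, reads CUACCUCA in the mRNA. The sites in the peaks were those of the authors' annotation, which lists 8mers, 7mers of 2 kinds (7m8, seed match without the A, and 7A1, a shorter match with the A) and 6mers. A strong site below is an 8mer or a 7mer.

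Across the families, the demethylases had the most peaks. Kdm genes had 20 peaks on 9 genes, Kmt2 14 on 5, Chd 12 on 5, Setd 12 on 6, Smarc 12 on 4, Arid 10 on 4, Brd 8 on 4, Kat 4 on 3 and Hdac 2 on 2. Of 89 genes of these families that were looked for by name, 42 had a peak. Among those without one were Arid1a, the BAF subunit most often mutated in cancer, the demethylase Kdm1a, the deacetylase Hdac2 and the core BAF subunit Smarcb1. A single peak was found on 19 of the 42 genes, and 9 genes had 4 or more. Smarcc1 had 5 peaks, and Kdm6b, Kmt2d and Setd5 had 6 each.

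Peaks lay in coding exons about as often as in 3′ UTRs. The 3′ UTR held 42 of 94 member peaks (44.7%, 95% Wilson interval 35.0 to 54.7) against 49.6% of all annotated peaks. Exons held 39 (41.5%, interval 32.1 to 51.6) against 32.2% of all. The interval for exons reaches just below the value for all peaks, so the excess is within counting error. Introns held 8 peaks (8.51%, against 12.1% of all), 5′ UTRs held 3 and the stretch just beyond the 3′ UTR held 2. These intervals cover counting error only and treat peaks as independent, which peaks of 1 gene are not.

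Sites for let-7 were the most frequent. A strong let-7 site was annotated in 19 of the 94 member peaks (20.2%, interval 13.3 to 29.4), on 16 of the 42 genes, against 779 of 7585 annotated peaks (10.3%). The share was 25.6% of the 39 exon peaks, where all exon peaks had 13.0%, and 18.2% of the 44 peaks in or just beyond 3′ UTRs, where all such peaks had 7.79%. The best let-7 site was an 8mer in 9 peaks, a 7m8 in 7 and a 7A1 in 3. Every family but Kat had at least 1 such peak: Chd had 5, Kdm 4, Smarc 3, Arid 2, Kmt2 2, and Brd, Hdac and Setd 1 each.

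The let-7 sites included those of the strongest member peaks. Among the 12 members of highest mean signal, 6 had one (50%, interval 25.4 to 74.6), while 14.9% of the 1037 annotated peaks at or above the same level did. Among the 33 members with a mean of at least 20 normalised counts it was 9 (27.3%, interval 15.1 to 44.2), against 12.3% of all peaks past that mean. All these let-7 intervals treat peaks as independent, which peaks of 1 gene are not. The Kdm6a let-7 peaks, with means of 215 and 59.6, are both among the 6. The 3 strongest members all carried a let-7 8mer. The 4 Kat peaks and 11 of the 12 Setd peaks had no strong let-7 site.

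Other seed families were spread thinly. Sites for miR-15/16, miR-200, miR-29 and miR-30 were in 6 member peaks each (6.38%), beside 6.24%, 5.68%, 6.10% and 2.39% of all annotated peaks in that order. Sites for miR-182 were in 5 (5.32%, interval 2.29 to 11.9) beside 1.85% of all, and those for miR-194 in 5 beside 4.65%. Sites for miR-18 were in 4 (4.26%, interval 1.67 to 10.4) beside 0.831%, on Arid2, Kat6b, Kdm3b and Kdm2a. Sites for miR-22 and miR-96 were in 4 each, beside 2.00% and 1.99%. Sites for miR-125 and miR-193 were in 3 each (3.19%, interval 1.09 to 8.97), beside 0.778% and 1.00%. For miR-30, miR-182, miR-18, miR-125 and miR-193 the share of all peaks lies below the interval, on 3 to 6 peaks each, and many families were compared. Some strong site was annotated in 73 of 94 member peaks (77.7%), close to the 76.0% of all peaks.

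**Figure D1:**
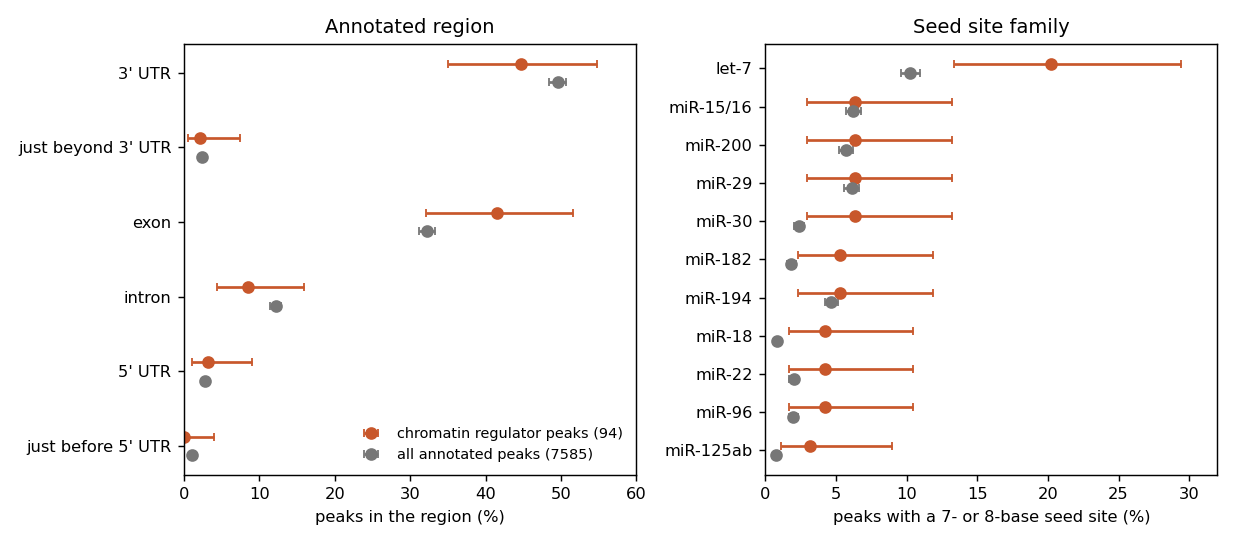
Percent of member peaks and of all annotated peaks in each region (left) and with a strong site for each seed family (right), with 95% Wilson intervals as bars. Exons held 41.5% of members and 32.2% of all peaks, and let-7 sites were in 20.2% of members and 10.3% of all peaks.

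Signal was concentrated in few peaks. The median member had a mean of 16.4 normalised counts over the 12 libraries, against 18.7 for all annotated peaks. The strongest member alone held 10.4% of the members' summed mean, the top 3 held 24.7% and the top 12 held 49.6%. By gene, the summed mean was highest for Kmt2b (397 normalised counts, 13.7% of the members' total), followed by Kdm6a (287), Smarcc1 (281), Kdm6b (203), Kmt2d (171), Setd5 (165) and Kdm3b (164). These sums add a gene's peaks and are not corrected for the length or abundance of its mRNA.

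Among the writers, Kmt2b, a methyltransferase of histone H3 lysine 4, carried the strongest peak. It lies in an exon at chr7:30575400-30575463 (mm10, minus strand) and holds 2 let-7 8mers and a miR-125 7m8 site. Its lowest, median and highest signal was 45.8, 133 and 652 normalised counts in WT, and 206, 438 and 574 in G12D. The groups overlapped: WT replicate 4 was the highest of all 12 libraries, while the other 5 WT libraries, from 45.8 to 174, lay below every G12D library. The share of all peaks split in this way was not counted, here or for the peaks below. The median of all tested peaks was itself higher in G12D (limma log2 fold change 1.33). Relative to that median this peak was at 0.19 (0.08 without WT replicates 5 and 6). WT replicates 5 and 6 were the lowest, with 12 and 19 reads.

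A second Kmt2b exon peak, at chr7:30575299-30575347, ends 52 bases from the first and holds a miR-15/16 7m8 site. It ranged from 0 through a median of 50.7 to 149 in WT and from 70.9 through 84.0 to 171 in G12D. Again WT replicate 4 reached into the G12D range, and WT replicates 5 and 6 were at or near 0 (1 and 0 reads). Another exon peak followed 120 bases further on, with a mean of 14.9, and the last lay 4070 bases away with a mean of 1.59, too low to be tested.

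The strongest peak held most of the Kmt2b signal in every library deep enough to judge. In the 11 libraries with at least 20 reads on the gene, its share of the Kmt2b signal was 67.9% to 95% (median 75%), and it was the highest of the 4 peaks in 11 of 11. The mean share was 76.5% in WT and 75.7% in G12D.

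Kmt2d, another H3K4 methyltransferase, showed no such leader. Its 6 peaks were 4 in the 3′ UTR and 2 in exons, and the leading pair, both in the 3′ UTR, had means of 52.1 (with a let-7 8mer) and 47.5 (with a miR-210 8mer). The first was highest in 5 and the second in 4 of 10 libraries. The exon peak at chr15:98866403-98866464 ran from 0 (median 6.41) to 38.0 in WT and from 7.6 (median 36.8) to 121 in G12D. Its highest values were in G12D replicates 5 and 6 and its lowest in WT replicate 5, and the groups overlapped.

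Setd5, a SET domain protein, had 6 peaks, of which the last in the 3′ UTR (chr6:113152376-113152432) was the strongest, at a mean of 82.0. It has no strong site. Its signal was 21.7, 33.3 and 112 (lowest, median, highest) in WT and 24.2, 104 and 240 in G12D. The 4 highest libraries were G12D replicates 4, 5 and 6 and WT replicate 4, all of batch 2, and G12D replicates 1 and 2 lay among the WT values. That peak was the highest of the gene in 9 of 10 libraries, and 3 weaker peaks precede it in the same 3′ UTR at gaps of 257, 69 and 124 bases.

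Other writers were weaker. The peak of Setd8, the H4K20 monomethyltransferase, lies in its 3′ UTR with a miR-24 site and ran from 9.06 (median 19.1) to 45.9 in WT and from 34.6 (median 50.5) to 66.7 in G12D. Here 5 of 6 WT libraries lay below every G12D library, and WT replicate 4 again lay among the G12D values. Relative to the median of all tested peaks, the log2 difference of this peak was -0.06 (0.59 without WT replicates 5 and 6). The acetyltransferases Kat6a and Kat6b each had an exon peak, with means of 24.4 and 34.4. The Kat6b peak, with a miR-18 site, ran from 9.30 (median 19.7) to 40.5 in WT and from 20.7 (median 43.9) to 105 in G12D, with G12D replicate 4 the highest and WT replicates 1 to 3 the lowest.

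Among the erasers, Kdm6a and Kdm6b, which remove methyl groups from H3K27, had strong let-7 peaks in different regions. For Kdm6a it was in the 3′ UTR at chrX:18250995-18251053, with a let-7 and a miR-147 8mer and a mean of 215. Its lowest, median and highest values were 27.2, 137 and 322 in WT and 118, 292 and 392 in G12D. The highest were G12D replicates 4 to 6, all of batch 2, with WT replicate 4 just below them, and the groups overlapped. Of the 3 Kdm6a peaks it was the highest in 11 of 11 libraries, with a share of 61.4% to 97.1%.

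A second Kdm6a 3′ UTR peak, 3111 bases on at chrX:18254165-18254218, also holds a let-7 8mer. It was 2.41, 59.6 and 89.0 in WT and 58.4, 70.6 and 79.9 in G12D. The 2 lowest values were those of WT replicates 5 and 6, at 1 read each. The other WT libraries, from 54.3 to 89.0 with a mean of 71.6 ± 15.2 (SD, n = 4), spanned the whole G12D range (mean 70.4 ± 7.48, SD, n = 6).

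For Kdm6b the strongest peak lay in an exon (chr11:69404765-69404828, minus strand), within a run of 4 exon peaks at gaps of 55, 8 and 65 bases. It holds a let-7 8mer and a miR-146 7m8 site. Values were 17.9, 24.0 and 138 in WT and 32.5, 120 and 227 in G12D. They fell into a high set of 4, G12D replicates 4 to 6 and WT replicate 4, all of batch 2, and a low set of 8 between 17.9 and 47.8. It was the highest Kdm6b peak in 6 of 10 libraries, and a 3′ UTR peak with miR-29 and miR-17 sites led in 3.

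Kdm3b, an H3K9 demethylase, had its main peak in the 3′ UTR at chr18:34837763-34837821, with a miR-200 8mer. It was 7.23, 136 and 216 in WT and 88.0, 134 and 298 in G12D, with the highest values in G12D replicates 1 and 2. WT replicates 5 and 6 were lowest at 3 reads each, and without them WT averaged 175 ± 65.5 (SD, n = 4) beside 168 ± 92.5 in G12D (SD, n = 6). Its share of the Kdm3b signal was 74.6% to 92.4%, and it led in 10 of 10 libraries.

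Kdm5a, an H3K4 demethylase, differed from the others in region and library pattern. Its main peak lies in the 5′ UTR at chr6:120364195-120364255, has no strong site, and held 71.9% to 100% of the gene's signal. It was 7.83, 59.2 and 308 in WT and 27.0, 65.6 and 168 in G12D. The highest values were those of WT replicates 5 and 6, 308 and 212, from 68 and 88 reads, in the 2 shallowest libraries. Without these libraries the WT mean was 34.4 ± 46.6 (SD, n = 4) instead of 110 ± 126 (SD, n = 6), and the G12D mean was 78.3 ± 52.7 (SD, n = 6).

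The other 5′ UTR peaks were on Brd1, an adaptor of acetyltransferase complexes, and Kdm3a. The Brd1 peak (mean 46.6) holds miR-182 and miR-200 8mers and was 12.1, 33.2 and 66.3 in WT and 23.1, 46.7 and 106 in G12D, highest in G12D replicates 1 and 2. The Kdm3a peak, with a miR-193 8mer, was 0, 5.87 and 18.3 in WT and 4.84, 14.9 and 34.1 in G12D, lowest in WT replicates 5 and 6. The Hdac peaks were weak, with means of 13.5 for Hdac1 (a miR-194 and a miR-125 site) and 12.9 for Hdac3 (a let-7 8mer).

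Among the remodellers, Smarcc1, a core BAF subunit, had the strongest peak, in an exon at chr9:110149944-110149998 with a let-7 8mer. It was 9.64, 117 and 475 in WT and 99.5, 119 and 456 in G12D. The 4 libraries at 366 or above, which were WT replicates 2 and 3 and G12D replicates 1 and 2, were all of batch 1, and the rest lay at 156 or below. It was the highest of the 5 Smarcc1 peaks in 10 of 10 libraries, with 45.2% to 84.5% of the gene's signal. The next, in the 3′ UTR with a miR-29 8mer, had a mean of 37.9.

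Smarca4, the BAF ATPase also called Brg1, had its main peak in an exon (chr9:21635809-21635873) with a let-7 7m8 site. It was 0, 35.9 and 68.1 in WT and 30.1, 59.2 and 160 in G12D, with G12D replicates 1 and 2 highest and WT replicate 5 at 0 reads. It led the 4 Smarca4 peaks in 10 of 10 libraries. A second exon peak, with a miR-182 site and a mean of 13.6, was 6.71, 13.6 and 45.3 in WT and 0, 9.52 and 23.1 in G12D, highest in WT replicate 5 (10 reads).

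Arid2, a subunit of PBAF, had its strongest peak in an intron (chr15:96308027-96308077) with a miR-194 8mer. It was 2.41, 55.1 and 98.4 in WT and 55.6, 62.2 and 144 in G12D. WT replicates 5 and 6 had 1 read each, and the other WT libraries lay within the G12D range but for replicate 1 at 52.8, just below it. This peak led in 10 of 11 libraries. The exception was WT replicate 6, where the exon peak at chr15:96371881-96371932, with a let-7 7m8 and a miR-125 8mer, held 82.2% of the Arid2 reads (37 reads).

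Chd4, the NuRD ATPase, had an exon peak (chr6:125101449-125101497) with a miR-15/16 8mer that led in 9 of 11 libraries. It was 22.6, 39.9 and 76.0 in WT and 55.6, 74.3 and 102 in G12D. Of the WT libraries 5 of 6 lay below every G12D library, and WT replicate 4 lay within the G12D range. Its log2 difference relative to the median of all tested peaks was -0.45 (0.08 without WT replicates 5 and 6). A 3′ UTR peak with a let-7 site (mean 40.8) led in the other 2 libraries. In Chd7, a 3′ UTR peak with a miR-23 8mer (mean 37.5) led in 9 of 10, and a neighbour 156 bases on holds let-7, miR-30 and miR-155 sites.

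**Figure D2:**
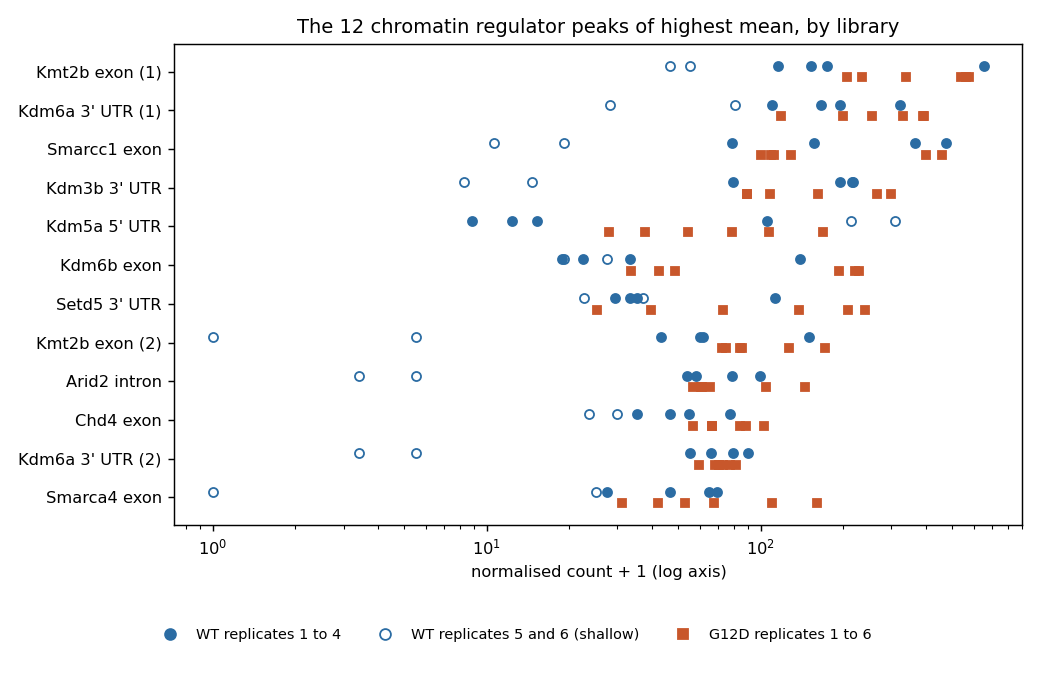
Normalised counts on a log axis of the 12 member peaks of highest mean in each of the 12 mRNA libraries, by genotype. The Kmt2b exon peak runs from 45.8 to 652 in WT and from 206 to 574 in G12D, and WT replicates 5 and 6 lie low in most peaks but highest in the Kdm5a 5′ UTR peak.

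**Figure D3:**
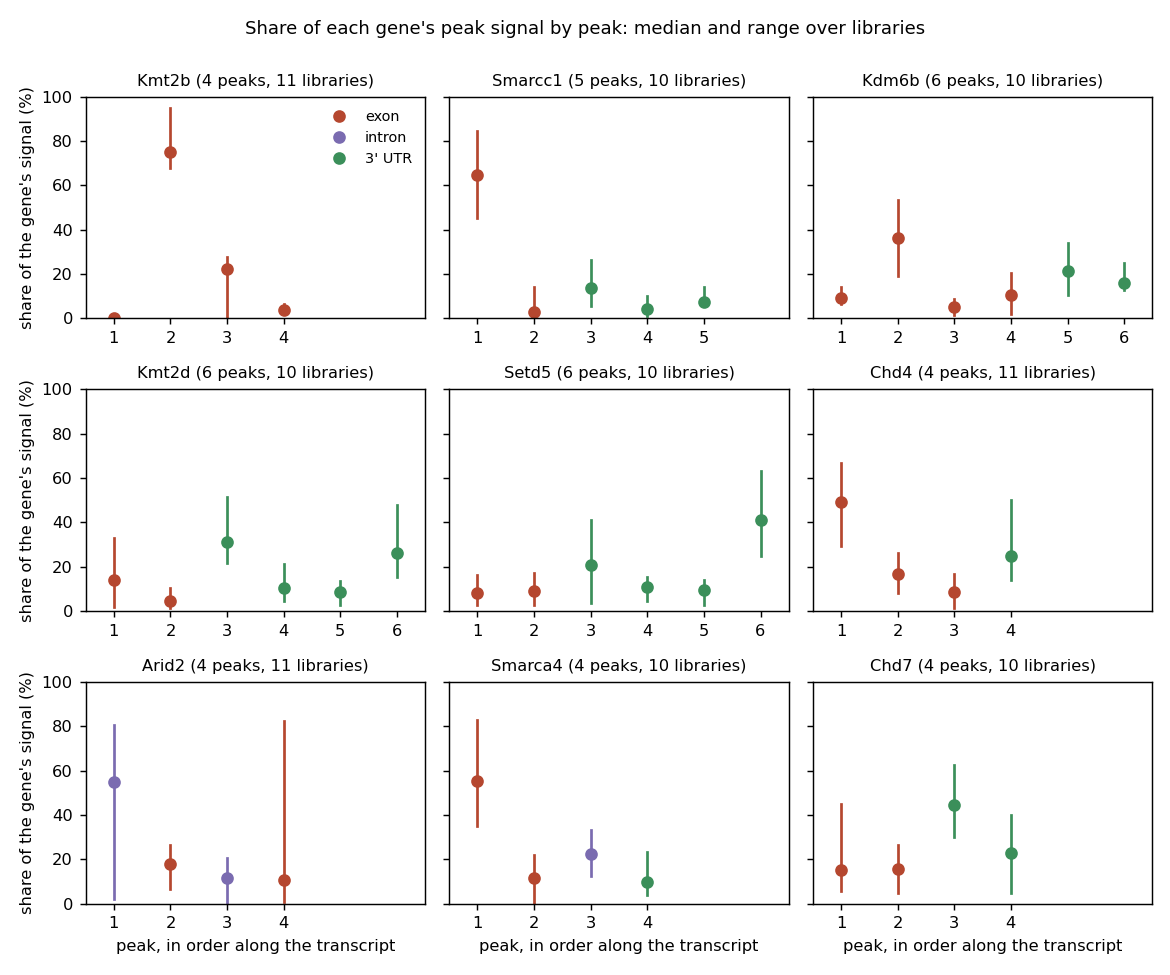
Share of a gene's summed signal held by each of its peaks, for the genes with 4 or more peaks, in the libraries with at least 20 reads on the gene. The Kmt2b exon peak held 67.9% to 95%, while no Kmt2d peak led in more than 5 of 10 libraries.

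Most members were called as peaks in G12D tumours only. The authors called 1 list for each genotype, and 62 of 94 member peaks (66.0%) overlapped only the G12D list, 30 (31.9%) both and 2 only the WT list. For all annotated peaks these shares were 71.9%, 26.2% and 1.96%. The members thus divided much as all peaks did, with the unequal depth of the WT libraries given above.

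No member peak passed the test between genotypes across all peaks. In limma, 0 of 91 tested members passed an adjusted p of 0.05, and 0 of 7527 peaks in all did (percent called, 0). Before adjustment, 28 of the 91 members had p under 0.05 with higher signal in G12D (35.9% of all peaks did) and 0 with lower (0.173% of all). The median log2 fold change, on the log2(value + 1) scale, was 1.34 for members and 1.33 for all peaks. So the median member lay 0.01 from the median of all peaks, with all libraries and also without WT replicates 5 and 6 (medians 0.38 and 0.38, with 0 members and 0.0399% of all peaks called). Within batch 1 that difference was 0.04, and within batch 2, where WT replicates 5 and 6 lie, it was -0.10. With library quality weights it was 0.18 (medians 0.60 and 0.42), with 56 of 91 members above the median of all peaks. No member had its whole G12D group above its whole WT group (1.7% of all peaks did) or below it (0%), and without WT replicates 5 and 6 the counts were again 0 and 0 (1.94% and 0.0797%).

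The strongest members lay near that median. Relative to the median of all peaks, the log2 difference was 0.19 for the main Kmt2b peak (log2 fold change 1.51, SE 0.64, limma adjusted p = 0.119) and -0.18 for the main Kdm6a peak. It was -0.32 for the Smarcc1 exon peak, -0.16 for Kdm3b, 0.23 for the Kdm6b exon peak and -0.12 for Setd5. Without WT replicates 5 and 6 these relative values were 0.08, -0.14, -0.43, -0.42, 0.34 and 0.11 in the same order. The Kdm5a peak turned over, from -0.86 to 0.79, when those 2 libraries were left out.

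A call of single members depended on the tool and on WT libraries. DESeq2 on the recovered reads with the deposited size factors gave 5 members an adjusted p under 0.05 with higher signal in G12D and 1 with lower, beside 10.1% and 0.359% of all 7527 peaks (10.5% together). Without WT replicates 5 and 6 it called 1 member, beside 2.27% of all. With DESeq2's own size factors it called 0 higher and 2 lower (0.425% and 0.903% of all). edgeR, with TMM factors, called none of the 91 (0.159% of all), and before adjustment 2 higher and 2 lower (4.17% and 3.61% of all). Without WT replicate 4, limma called 44 members, each with higher signal in G12D, beside 45.2% of all peaks. It called 3 with a pseudocount of 5 (6.82% of all), 9 with library quality weights (11.3%) and 1 in batch 2 alone (3.11%).

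The member that DESeq2 called both with all libraries and without WT replicates 5 and 6 was an exon peak of Kat6a (chr8:22932581-22932629, with a miR-15/16 8mer), an acetyltransferase of histone H3. It was 0, 1.78 and 22.2 in WT and 3.38, 49.4 and 99.2 in G12D. G12D replicates 3 to 6 lay at 46.3 or above, higher than every WT library, and G12D replicates 1 and 2 lay at 3.38 and 4.15, within the WT range. DESeq2 gave a log2 fold change of 2.93 (SE 0.72, adjusted p = 0.00557), and 2.58 (adjusted p = 0.0483) without WT replicates 5 and 6. limma gave 2.96 (SE 0.80, adjusted p = 0.108). The adjusted p was 0.164 in DESeq2 with its own size factors and 0.424 in edgeR with TMM factors, so neither called the peak. In the authors' deposited table, 4 members were higher and 1 lower at an adjusted p under 0.05 of 93 with a value (5.38%), beside 10.3% of all peaks.

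The other members that DESeq2 called with all libraries were weak. They were an intron peak of Brd8, a bromodomain protein of the Tip60 acetyltransferase complex, an exon peak of Kdm4a, an H3K9 demethylase, and 3′ UTR peaks of Setd7, a lysine methyltransferase, and Arid4b, a Sin3 complex subunit, with means of 15.8, 7.58, 10.2 and 15.4. The Brd8 peak was 0, 4.13 and 11.9 in WT and 4.84, 26.6 and 58.2 in G12D, and G12D replicates 3 to 6 lay above every WT library. The Setd7 peak was 0, 3.12 and 8.89 in WT and 6.27, 14.3 and 40.2 in G12D, with 4 of 6 G12D libraries above every WT library. Their DESeq2 log2 fold changes were 2.07 for Brd8 (adjusted p = 0.0214), 2.05 for Kdm4a (0.0316), 1.79 for Setd7 (0.0292) and 1.38 for Arid4b (0.05 after rounding, just under the threshold). In DESeq2 without WT replicates 5 and 6 their adjusted p-values were 0.156, 0.267, 0.183 and 0.234.

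The member called lower by DESeq2 with all libraries and the deposited size factors was high in 1 library. This exon peak of Brd3, a reader of acetylated histones, was 1.12, 9.58 and 136 in WT and 0, 3.21 and 23.1 in G12D. The value of 136 was that of WT replicate 5, from 30 reads, and the other 5 WT libraries lay between 1.12 and 14.5. DESeq2 gave a log2 fold change of -2.24 (adjusted p = 0.036) with all libraries and -1.43 (adjusted p = 0.387) without WT replicates 5 and 6. With its own size factors DESeq2 gave -4.02 (adjusted p = 0.00426). That scaling also called the second Smarca4 exon peak lower, at -2.49 (adjusted p = 0.00803), where the deposited size factors gave -1.02 (adjusted p = 0.121).

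**Figure D4:**
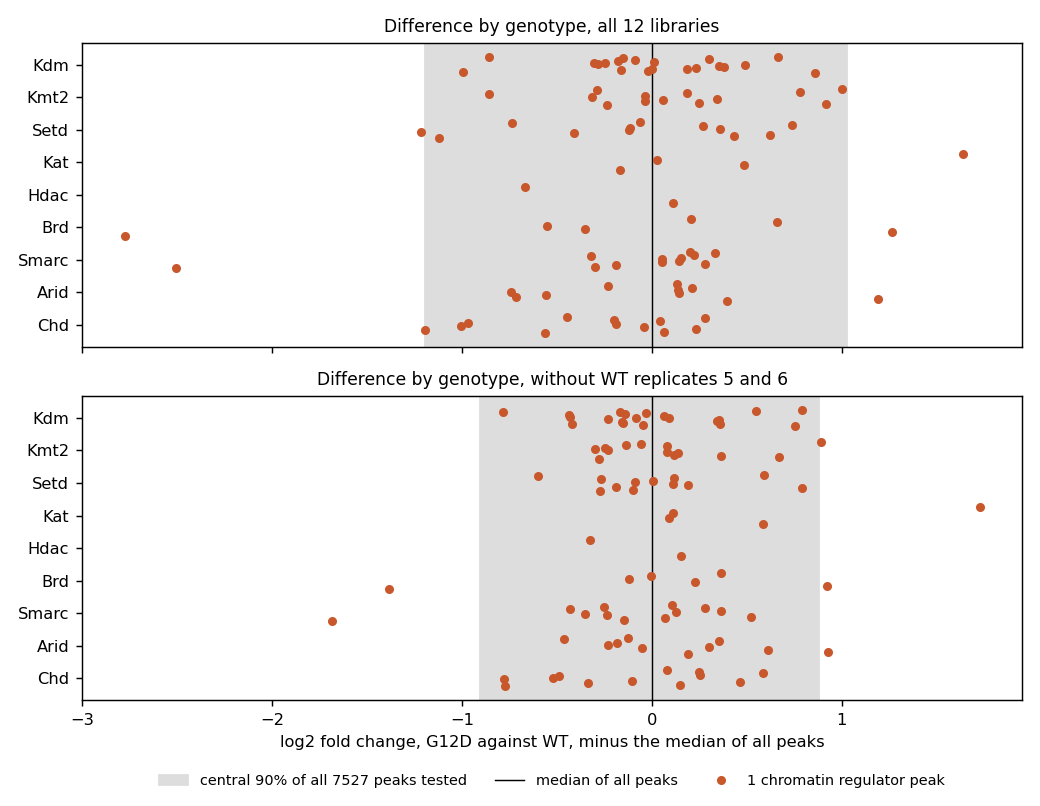
Log2 difference between genotypes of each tested member relative to the median of all tested peaks, with all libraries and without WT replicates 5 and 6; the band spans the central 90% of all tested peaks. With all libraries 3 of 91 members lie below the band and 3 above it, and without WT replicates 5 and 6 it is 2 and 4.

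The share of all peak signal that fell on these genes overlapped between genotypes. The 6 WT libraries averaged 0.837% ± 0.125 (SD, n = 6, range 0.716 to 1.08) and the 6 G12D libraries 0.885% ± 0.0762 (SD, n = 6, range 0.790 to 1.00). The ranges overlapped, and the highest share was that of WT replicate 4. Without WT replicates 5 and 6 the WT share was 0.868% ± 0.140 (SD, n = 4). The order of the means turned when only annotated peaks were summed and a name rule meant for ribosomal, mitochondrial and small RNA genes was applied. The shares were then 0.932% ± 0.125 in WT and 0.921% ± 0.0771 in G12D (SD, n = 6 for both). The rule left out every gene with a symbol starting with Rn or Mir, so also protein-coding genes so named, such as any Rnf gene.

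The Ago2-bound let-7 miRNAs overlapped in level between genotypes. The summed signal of the let-7 family, in normalised counts, averaged 16382 ± 1842 over the WT libraries and 16466 ± 1763 over the G12D libraries (SD, n = 6 for both). The most abundant member, let-7i, was 5149, 5519 and 6597 in WT and 4932, 5380 and 6317 in G12D, with overlapping groups. Its log2 fold change was -0.03 (SE 0.07, limma adjusted p = 0.819), where 11 of 284 miRNAs (3.87%) were called. Some members were much lower in WT replicate 5, with let-7a at 231, let-7f at 183, let-7d at 116 and let-7g at 152. Their WT medians were 1320.5, 1124, 447 and 373 in that order. In the same library let-7b and let-7c were at 4833 and 2562, beside WT medians of 4792 and 2849.

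Looked up were 18 of the 56 seed families with sites in member peaks. Of their 49 tested miRNAs limma called 1, miR-23a, beside 11 of 284 in all. DESeq2 called 2, miR-23a and miR-18a, beside 27 of 284 in all. Summed levels in WT and G12D were 35398 and 36174 for miR-200, 23608 and 22228 for miR-30, 12775 and 13399 for miR-194, 5360 and 5177 for miR-15/16, and 1494 and 1319 for miR-29. The miR-30 sum covers miR-30a, miR-30c and miR-30e only. The log2 fold change of miR-29a was -0.26 (SE 0.10, limma adjusted p = 0.175). miR-182 averaged 582 ± 365 over WT libraries and 792 ± 245 over G12D libraries (SD, n = 6 for both), with WT replicate 5 lowest at 65.5, and its limma adjusted p was 0.355.

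miR-23a was higher in G12D. It was 1707, 1924 and 2054 in WT and 2006, 2864 and 3758 in G12D, and G12D replicate 5 lay below the highest WT library, replicate 2. The log2 fold change was 0.51 (SE 0.11), with an adjusted p of 0.0189 in limma and 0.000836 in DESeq2. Within batches it was 0.68 (limma adjusted p = 0.0867) and 0.34 (0.362), and the call was lost without WT replicate 2 (0.0545) or G12D replicate 6 (0.0569), without the batch term (0.107) and with the replicate block (0.0516). Sites for miR-23 were in 3 member peaks (beside 3.24% of all peaks), on Chd7, Setd2 and Setdb1. The limma log2 differences of these peaks relative to the median of all peaks were 0.06, -1.21 and -1.12, and none passed the test.

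miR-18a, like miR-23a singled out after its values were seen, just missed the limma threshold. It was 891, 1181 and 1329 in WT and 1371, 1520 and 1573 in G12D, so that the groups did not overlap. The share of all tested miRNAs with such a separation was not counted, so how unusual it is cannot be judged. The log2 fold change was 0.41 (SE 0.11), with an adjusted p of 0.0572 in limma and 0.0104 in DESeq2. Without WT replicates 5 and 6, its lowest WT libraries, it was 0.26, and neither limma (adjusted p = 0.154) nor DESeq2 (0.0916) called it. Within batches it was 0.24 (limma adjusted p = 0.451) and 0.57 (0.289). DESeq2 with its own size factors did call it (adjusted p = 0.00998), and so did limma without WT replicate 3 (0.0498). The 4 member peaks with its site include the Kat6b exon peak, whose limma log2 difference relative to the median was -0.17 (0.59 without WT replicates 5 and 6), with a DESeq2 adjusted p of 0.05, just above the threshold.

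Member peaks with and without a let-7 site were set side by side. The median log2 difference relative to all tested peaks was -0.18 over the members with a let-7 site and 0.05 over those without. It was -0.04 over all annotated peaks with a site. Without WT replicates 5 and 6 the values were -0.28, 0.08 and -0.05. These medians mix peaks that share genes, and they were not tested.

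**Figure D5:**
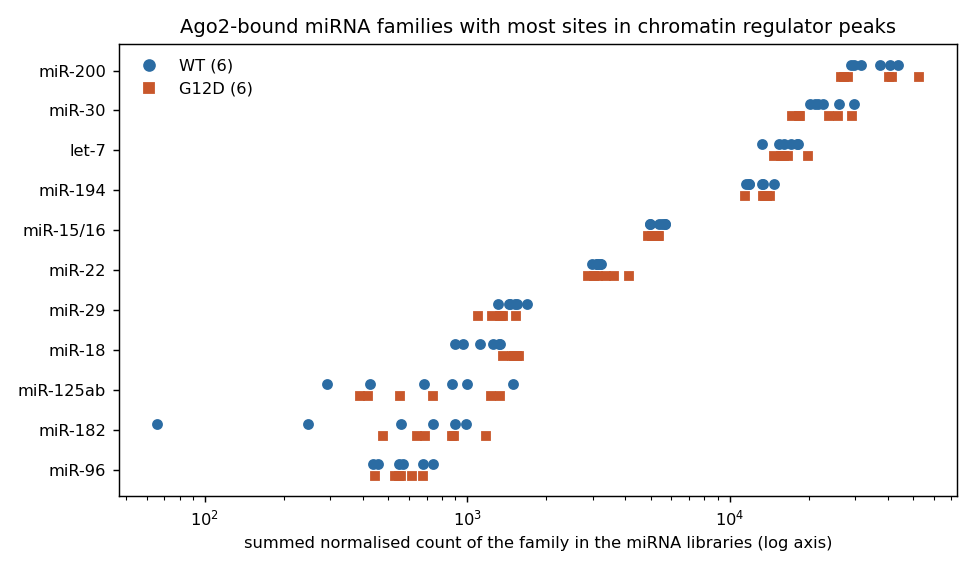
Summed normalised counts on a log axis of the miRNA families with most sites in the member peaks, in each of the 12 miRNA libraries, by genotype. The let-7 family lies between 13324 and 19815 in all libraries, and miR-182 reaches down to 65.5 in WT replicate 5. The miR-30 sum covers miR-30a, miR-30c and miR-30e only.

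Other chromatin genes, outside the 9 families or grouped by complex, were looked up by list. Peaks were found on 8 of 26 BAF and PBAF genes, 12 of 27 NuRD, CoREST and Sin3 genes, 7 of 17 genes of H3K4 methyltransferase complexes, 10 of 26 Polycomb genes, 5 of 10 genes of DNA methylation and 25 of 41 other chromatin genes. limma called 0 peaks in each list, and 0 of all 7527 tested peaks (0%). DESeq2 with all libraries called, in the same order, 1 of 24 tested peaks, 1 of 16, 0 of 19, 2 of 15, 1 of 17 and 2 of 56, each higher in G12D, beside 10.1% of all peaks. The call in the second list was the member Arid4b. The others were 1 peak on each of Pbrm1, the PBAF bromodomain subunit, the Polycomb cofactors Jarid2 and Asxl1, the DNA demethylase Tet3, Atrx and Baz2a, and none of these passed without WT replicates 5 and 6. The Tet3 peak was the strongest of them, averaging 62.4 ± 54.4 normalised counts over WT libraries and 214 ± 166 over G12D libraries (SD, n = 6 for both; DESeq2 log2 fold change 1.87, adjusted p = 0.0449). A let-7 site was, in the same order of lists, in 6 of 24 peaks (25%), 3 of 16 (18.8%), 5 of 20 (25%), 5 of 16 (31.3%), 3 of 17 (17.6%) and 7 of 57 (12.3%). Of all annotated peaks 10.3% had one. The BAF and PBAF, corepressor and H3K4 lists include member peaks already counted above.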

How the data were processed

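The authors deposited 1 signal value for each merged peak and each mature miRNA in each library, read counts divided by a size factor per library. Every value (100%) was a whole multiple of 1 read within a tolerance of 0.001, so whole reads could be recovered. Peak columns carry a model and a number without a library type, so they were read as mRNA libraries; input libraries were not analysed here. Named in the submitters' processing notes, without roles, are the builds GRCm38 and mm10, DESeq2, and STAR 2.5.2b. For the peak caller, a name is not given in the sources used. The deposited comparison of the authors gives log2 fold changes and adjusted p-values. The deposited score per peak of the lists for each genotype has no stated unit, and the lists served only for overlap (at least 1 base). Region and seed sites are the authors' annotation, which lacks 145 of 7730 merged peaks.

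G12D was compared with WT in R 4.3.3 by limma-trend (version 3.58.1) with a batch term, on values to which 1 was added before taking log2. Tested were 7527 peaks averaging 5 or more and 284 miRNAs averaging 10 or more, at a Benjamini-Hochberg adjusted p of 0.05. Of the members 91 were tested. Adding 1 shrinks the log2 ratio of low values, but the median limma change over all peaks was not smaller than in DESeq2 or edgeR. Single peaks could differ the other way, as the Brd3 exon peak did with -1.45 in limma and -2.24 in DESeq2. The median log2 fold change of all peaks was 1.33 in limma, 0.88 with a pseudocount of 5 and 0.86 in DESeq2 with the deposited size factors. DESeq2 1.42.0 and edgeR 4.0.16 ran on recovered reads as alternatives. Scripts were checked on simulated data. Paralogous genes can share reads.

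Named peaks were the 12 of highest mean, the highest of each family, the 5 of smallest limma p in each direction relative to the median (mean of at least 20), those called by limma or DESeq2, all peaks of genes with 4 or more, 5′ UTR peaks, and the highest 2 for the leading seed families (7 with ties). Of 596 miRNAs 517 matched a RefSeq sequence by name. The members, lists and rules were chosen with earlier results of these data known.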

Additional observations from a re-analysis of the deposited data

Results flagged for a closer look

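In 19 of 148 groups of 6 libraries, 1 library stood apart from the others by Dixon's criterion. For independent, normally distributed values, chance alone marks about 1 in 20 such groups. The values here were not logged and many groups share the same libraries, so the count of 19 cannot be judged by that rate. WT replicate 4 was the library apart in 12 of the 19, each time as the highest of WT. Its values were 652 normalised counts for the main Kmt2b exon peak and 37.5 for a weaker one, 138, 22.2 and 35.6 for 3 exon peaks of Kdm6b, and 112, 36.5 and 26.2 for 3 peaks in the Setd5 3′ UTR. They were 22.2 for the Kat6a exon peak, 51.8 for the leading Chd7 peak, 69.1 for the Arid5b 3′ UTR peak and 1.08% for the share of signal on these genes. Over all 94 members WT replicate 4 was the highest WT library in 64 (68.1%), against 50.8% of all annotated peaks.

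WT replicate 5 stood apart as the highest of WT in the Brd3 exon peak (136) and the second Smarca4 exon peak (45.3), though it was the shallowest library. Among G12D libraries, replicate 4 was highest in the Setd7 3′ UTR peak (40.2) and replicate 5 in a Kdm6b exon peak (60.9), and replicate 3 was lowest in an Arid2 exon peak (13.9). Among the miRNAs, let-7i was highest in WT replicate 2 (6597) and miR-194 lowest in G12D replicate 1 (11407).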

How the results depend on the processing

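The number of calls was the least stable result. Over all peaks limma called 0, and it called 513 with a pseudocount of 5, 853 with library quality weights, 234 in batch 2 only and 3 without WT replicates 5 and 6. DESeq2 called 787, 100 with its own size factors and 171 without WT replicates 5 and 6 (an alternative chosen after seeing the data), and edgeR called 12 with TMM factors and 10 with the deposited ones. Members called were 3 with a pseudocount of 5, 9 with quality weights and 1 in batch 2 only, and 6, 2 and 1 in the 3 DESeq2 fits. Leaving out 1 library at a time gave 0 to 3404 calls over all peaks, 0 to 44 among members, with both maxima without WT replicate 4, and 5 to 16 among miRNAs. The relative median of the members stayed between -0.05 and 0.04 in those fits, and was 0.18 with quality weights. The 11 miRNA calls became 6 without the batch term, 27 and 28 in DESeq2 with the deposited and its own size factors, 20 in DESeq2 without WT replicates 5 and 6, 17 with quality weights, 1 in batch 1 and 0 in batch 2.

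Only some of the named peaks and miRNAs were followed through every setting. Among those, signs turned for the log2 fold changes below, all small under their alternative except Kdm5a, and the cause was not tested. Over all 91 tested members, 89 were above 0 in limma, 51 in DESeq2 with its own size factors and 53 in edgeR with TMM factors. The share of all peaks above 0 was not counted. Above the median of all peaks were 47, 47 and 46 members in the same order. Some turns of sign among the members were larger: an Arid1b intron peak (chr17:5005661-5005730) went from 0.61 in limma to -1.27 in DESeq2 with its own size factors. Without WT replicates 5 and 6 limma gave -0.0511 for Smarcc1, -0.0426 for Kdm3b, -0.0590 for the second Kdm6a peak and -0.00119 for miR-194, and DESeq2 -0.11, -0.0167, -0.0617 and -0.000801. With its own size factors DESeq2 gave -0.0143 and -0.20 for the Kdm6a peaks, -0.23 for Smarcc1, -0.13 for Kdm3b, -0.95 for Kdm5a, -0.0832 for Chd4 and -0.15 for Brd1. edgeR with TMM factors gave -0.0539 for the second Kdm6a peak, -0.16 for Smarcc1, -0.0710 for Kdm3b, -0.94 for Kdm5a, -0.10 for Chd4 and -0.11 for Brd1. Quality weights gave -0.27 for the Arid2 intron peak and -0.16 for Kdm3a. Batch 1 gave -0.0681 for the second Kdm6a peak, 0.0285 for let-7i, 0.0354 for miR-200c, 0.0407 for miR-30e and -0.0264 for miR-194, and batch 2 gave -0.76 for Kdm5a. The scalings also moved the median of all peaks, from 1.33 in limma to 0.86 in DESeq2, 0.07 with its own size factors and 0.12 in edgeR with TMM factors.

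Same-numbered libraries of the 2 genotypes did not deviate together (correlations of -0.517 to 0.306 for peaks and -0.361 to 0.305 for miRNAs), so the numbers were not taken as pairs. With the replicate block limma called 0 peaks, 0 members and 6 miRNAs. Depth limits the WT side most, since 1 read was worth 4.53 normalised counts in WT replicate 5.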
